A study of Mus musculus with 24 samples.

Results

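The ribosome footprint libraries of mouse E14 embryonic stem cells carry the numbers 1 to 4 within each of 3 treatments. This account sets the 6 footprint libraries numbered 3 and 4 against the 6 numbered 1 and 2, which together are 12 of the 24 libraries of the series. The split was chosen by the footprint values themselves, so footprint differences between the 2 sets are given as a description, with no test. Those values do not part the 2 sets fully. Numbers 3 and 4 also lay apart from each other. On the first principal component of footprints, 1 library numbered 4 fell among numbers 1 and 2. The RNA libraries, 12 others that bear the same numbers, were not used to pick the split and were tested.

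E14 is an embryonic stem cell line, here the only line in all groups, kept by a standard stem cell protocol. Cells received an oligonucleotide with locked nucleic acids (LNA) antisense to tRF-GG, a fragment of glycine tRNA (the inhibitor), or an esiRNA against GFP as the control, or were mock-transfected. Each treatment has 4 footprint and 4 RNA libraries, and each set of numbers holds 2 libraries of every treatment, so the treatments are balanced between the sets. Footprints are RNAs of 26 to 32 nucleotides from 80S ribosomes isolated on a sucrose gradient after RNase digestion, and RNA libraries were made from RNA extracted with Trizol. The labels do not say what a number stands for, whether libraries with different numbers came from separate cultures, or whether an RNA and a footprint library of one number share a culture. The p-values below therefore measure the spread between these samples only, which may be technical.

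All values are FPKM, scaled so that genes measured in every library have the same median level in all of them. Differences are in log2(scaled FPKM + 1), as numbers 3 and 4 minus numbers 1 and 2 after allowing for treatment, and this scale understates the change of genes near 0. Of 23917 genes in each table, 10661 were compared in footprints and 12557 were tested in RNA. A footprint gene is counted here when all 6 libraries of one set lie beyond all 6 of the other and the difference is at least 1. An RNA gene passed when its adjusted p by limma was under 0.05.

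Depth, in percent of the deepest library of a table, ranged from 59.1% to 94.0% in footprint numbers 1 and 2 and from 20.6% to 100% in numbers 3 and 4. The 45S ribosomal precursor Rn45s took 18.5% to 44.2% of footprint FPKM in numbers 1 and 2 and 24.9% to 38% in numbers 3 and 4. In RNA it took 2.1% to 62.7% in numbers 1 and 2 against 1.68% to 5.25% in numbers 3 and 4. The high RNA shares were those of number 1, at 62.7% in inhibitor, 18.1% in GFP and 39.1% in mock, against 2.1% to 2.81% in number 2. RNA depth was 25.5% to 99.1% in numbers 1 and 2 and 7.18% to 100% in numbers 3 and 4. The part of depth and ribosomal RNA in the differences was not tested. All 9 stem cell markers had means of at least 25 scaled FPKM in footprints, whereas 7 of 8 fibroblast feeder markers, among them Col1a1, Col1a2 and Col3a1, were under 0.5 in both assays. Of the 4 trophoblast markers, Cdx2, Elf5 and Krt7 were also under 0.5 in both assays. Hand1 was at 0.96 in footprints and 1.33 in RNA. None of the 6 primitive endoderm markers was under 0.5. Of these 6, 4 had a mean of at least 1 in footprints and 5 in RNA, with the highest at 1.86 and 2.66. Of the 3 neural markers, Pax6 and Neurog2 were under 0.5 in footprints and Neurog2 alone in RNA. The summed level of the stem cell markers in footprints was 2296 to 3015 in numbers 1 and 2 and 2679 to 3352 in numbers 3 and 4.

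Within the sets the libraries were not alike. Numbers 3 and 4 lay apart from each other as well as from 1 and 2, and the inhibitor library numbered 4 fell among numbers 1 and 2 on the first footprint component. Among the libraries numbered 1 and 2, the mock footprint libraries followed the other number of the control: deviations from the treatment mean correlated at 0.77 between mock 1 and GFP 2 and at 0.82 between mock 2 and GFP 1, across 4572 genes that are not independent replicates. Between equal numbers the values were 0.14 for number 1 and 0.06 for number 2. Both mock libraries stay in the same set either way, so the comparison below is untouched by this.

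**Figure D1:**
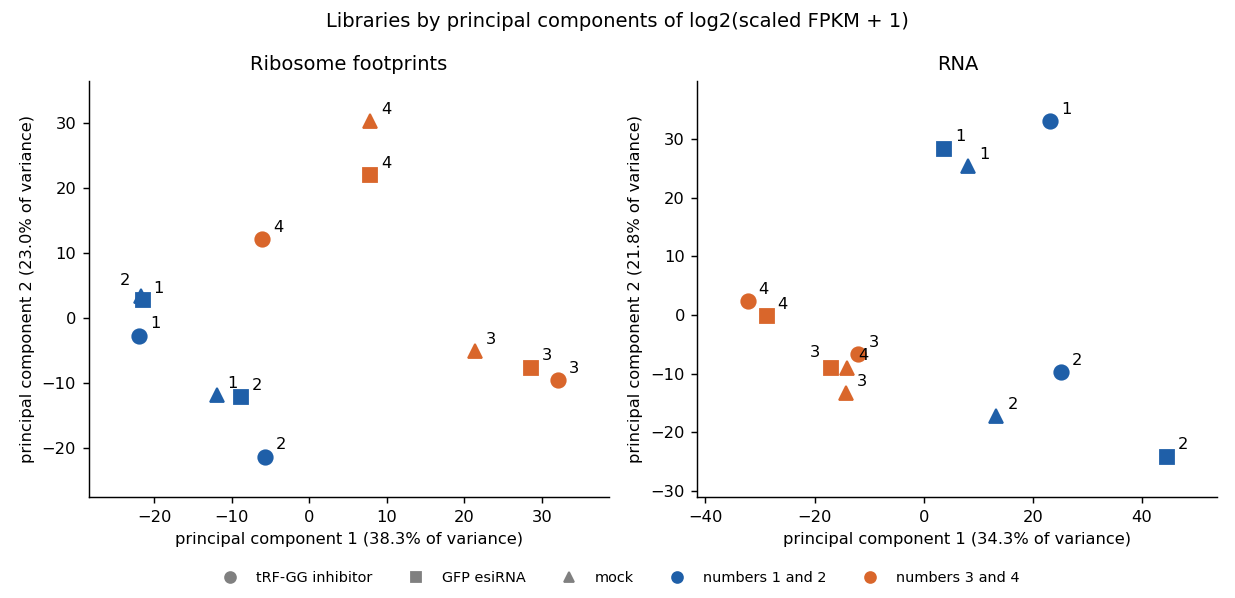
Each point is 1 library, placed by the first and second principal components of log2(scaled FPKM + 1), with footprints on the left and RNA on the right; shapes give the treatment, colours the set and digits the library number. In footprints the first component holds 38.3% of the variance, and the inhibitor library numbered 4, at -6.11, is the 1 library of its set below 0; in RNA all 6 libraries numbered 1 and 2 lie above 0 and all 6 numbered 3 and 4 below it.

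In footprints 29 genes were counted higher in numbers 3 and 4 (0.272% of those compared) and 85 lower (0.797%). Without the size limit, 304 genes (2.85%) lay wholly above and 693 (6.5%) wholly below, and the median of all genes was -0.10. Without the inhibitor library numbered 4 the counts were 48 and 139, though the rule is easier to meet with fewer libraries. In RNA 648 genes rose (5.16%) and 496 fell (3.95%), with a median of -0.02. RNA libraries of one number deviated together in every pair of treatments, and with number as a block 143 RNA genes rose (1.14%) and 86 fell (0.685%). With FPKM as deposited, where the RNA median of all genes was 0.60, 254 rose and 16 fell. In the control treatments alone 50 rose and 27 fell, and without number 4 in all treatments 57 rose and 32 fell, against 111 and 64 without number 3. The RNA counts changed by over 1.5 times when 1 of several libraries was left out: they were 334 and 213 without inhibitor 4, 310 and 229 without GFP 3, and 310 and 203 without GFP 4, and the lower count was 313 without inhibitor 2 and 302 without inhibitor 3. Genes named below follow a rule of size given with the methods. List members named beyond it were chosen after their values had been seen. Adjusted p-values of single RNA genes take the libraries as independent unless a value with the block is given.

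Most footprint genes that stood out had an RNA difference of the same sign (24 of 27 higher and 77 of 83 lower). Most also passed in RNA with libraries taken as independent, but only a minority did with number as a block. Of the 29 counted higher, 27 were tested in RNA and 19 of these (70.4%) rose there, against 5.16% of all genes. None of them fell, and the median RNA difference was 1.0. Of the 85 counted lower, 83 were tested and 58 (69.9%) fell, against 3.95% of all genes, 2 rose, and the median was -0.94. With number as a block, 11 of the 27 rose, and of the 83, 30 fell and 2 rose. Among all genes 1.14% rose and 0.685% fell with the block. Read from the other side, 19 of the 562 RNA genes that rose and were compared in footprints were counted higher there (3.38%). Of 436 that fell, 58 were counted lower (13.3%). Among all genes compared in footprints these shares were 0.272% and 0.797%. Across 10489 genes the footprint and RNA differences correlated with a Pearson r of 0.52 and a Spearman rho of 0.58. Among the 1553 genes whose mean reached 20 FPKM in both assays these were 0.37 and 0.51. Genes are not independent replicates, so no p is given.

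**Figure D2:**
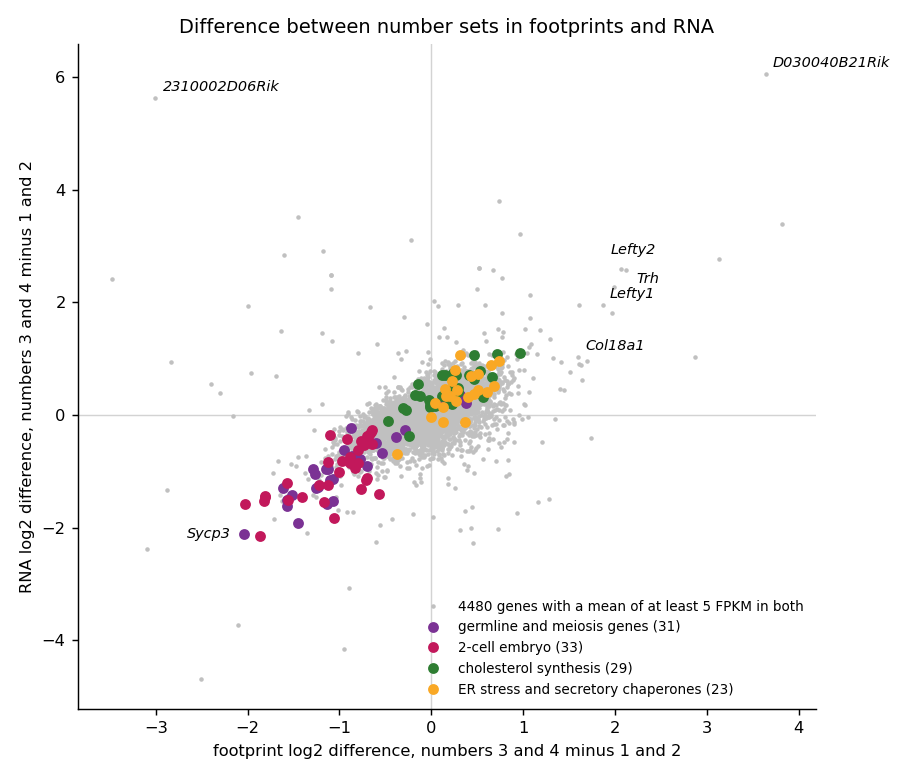
Each point is a gene, with its footprint difference on the horizontal axis and its RNA difference on the vertical axis, both in log2 as numbers 3 and 4 minus 1 and 2; coloured points are members of 4 gene lists. The 2-cell and germline genes lie mostly to the lower left (list medians -0.92 and -1.06 in footprints), Lefty1, Lefty2 and Trh lie to the upper right, and 2310002D06Rik is lower in footprints and higher in RNA.

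Germline genes had more members counted than any other list examined. These genes act in meiosis and in the making of eggs and sperm. In embryonic stem cells many of them are held silent by DNA methylation at CpG-rich promoters and by a variant Polycomb complex, PRC1.6, whose subunits E2F6 and MGA bind the E2F sequence and the E-box. Of the 50 list members in the files, 31 were compared in footprints, and 13 were counted lower and none higher, against 0.797% lower among all genes. The list's median was -1.06 beside -0.10 for all genes. Of the 35 members tested in RNA, 20 fell and none rose, with a median of -0.94 beside -0.02, against 3.95% of all genes, and 11 fell with number as a block, against 0.685%. The list was drawn up after values of these data had been seen. A member near 0 in 1 set could enter through the other set alone, so the counts are not independent support for the direction.

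The promoter windows of 4 of the germline genes counted lower are printed to show the sequences these complexes are known to bind. All 4 hold an E-box, against 17 of the 43 windows of the list, so they do not stand for the list. They are RefSeq sequences on GRCm38.p6, from 250 bases before to 50 after a transcript start in that table, read 5′ to 3′ on the gene's strand. For Stag3 this start lies inside the gene's span given below, and for Taf7l it differs from the end of the span by several bases. Capitals mark CACGTG, the E-box, and GCGGGAA or its reverse complement TTCCCGC, the E2F sequence; CACGTG reads the same on both strands and the motifs do not overlap.
Sycp3 (chr10:88459337-88459636, plus strand): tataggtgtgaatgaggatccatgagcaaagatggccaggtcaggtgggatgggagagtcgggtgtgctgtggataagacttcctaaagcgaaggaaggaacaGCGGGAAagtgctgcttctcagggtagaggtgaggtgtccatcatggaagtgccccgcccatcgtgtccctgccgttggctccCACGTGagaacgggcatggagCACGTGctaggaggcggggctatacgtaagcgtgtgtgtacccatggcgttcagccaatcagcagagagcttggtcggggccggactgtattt
Hormad1 (chr3:95559427-95559726, plus strand): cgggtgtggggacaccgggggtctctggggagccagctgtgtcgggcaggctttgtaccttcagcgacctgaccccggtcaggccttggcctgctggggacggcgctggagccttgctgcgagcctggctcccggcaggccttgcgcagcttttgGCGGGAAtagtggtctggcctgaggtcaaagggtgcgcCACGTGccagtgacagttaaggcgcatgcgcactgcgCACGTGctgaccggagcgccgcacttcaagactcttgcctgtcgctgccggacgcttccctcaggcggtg
Stag3 (chr5:138280259-138280558, plus strand): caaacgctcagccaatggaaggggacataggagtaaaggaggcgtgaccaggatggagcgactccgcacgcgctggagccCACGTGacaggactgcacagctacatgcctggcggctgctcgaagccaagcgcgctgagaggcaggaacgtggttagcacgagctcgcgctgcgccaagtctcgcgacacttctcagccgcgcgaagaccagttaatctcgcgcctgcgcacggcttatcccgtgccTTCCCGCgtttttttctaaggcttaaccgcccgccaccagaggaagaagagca
Taf7l (chrX:134476441-134476740, minus strand): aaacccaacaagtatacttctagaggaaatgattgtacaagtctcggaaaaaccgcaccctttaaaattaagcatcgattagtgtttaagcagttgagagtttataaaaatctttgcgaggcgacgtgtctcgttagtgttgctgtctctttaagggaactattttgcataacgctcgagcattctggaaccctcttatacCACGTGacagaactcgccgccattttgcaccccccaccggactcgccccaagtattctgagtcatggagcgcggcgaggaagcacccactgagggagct

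Sycp3 and Hormad1 each held 2 E-boxes and 1 E2F sequence in these windows, Stag3 held 1 of each and Taf7l held 1 E-box. Of the 43 list members with a window in the table, 17 held an E-box (39.5%) and 11 the E2F sequence (25.6%). Among the 7876 windows of genes compared in footprints the shares were 11% and 9.27%, and among all 27025 windows 7.24% and 4.66%. Members that fell in RNA held the E-box in 8 of 17 windows and the other members in 9 of 26. A match describes the letters of the window and shows no binding.

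Sycp3 encodes a structural protein of the meiotic chromosome axis (chr10:88459587-88473236). Its footprints were 8.96, 14.2 and 23.5 scaled FPKM (lowest, median and highest of 6) in numbers 1 and 2 and 1.0, 3.33 and 4.39 in numbers 3 and 4. The sets did not overlap, and the difference was -2.04 (SE 0.31). In RNA it went from 6.65, 13.2 and 29.6 to 1.46, 1.61 and 6.05, a fall of -2.12 (SE 0.37, adjusted p = 0.00665 by limma). With number as a block the adjusted p was 0.0431, and over the alternatives it ranged from 0.000963 to 0.129. The RNA sets did not overlap either, and the fall in mock libraries (-0.95) was smaller in size than in inhibitor (-2.52) or GFP libraries (-2.87), a contrast that was not tested in RNA.

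Other genes of the meiotic axis and of cohesin had lower footprints as well. Hormad1, which marks unpaired chromosome axes (chr3:95559677-95587863), had 11.6, 12.2 and 19.5 scaled FPKM in numbers 1 and 2 and 2.39, 3.92 and 7.05 in numbers 3 and 4, so the sets were apart (difference -1.52, SE 0.13). Its RNA fell by 1.43 (SE 0.31, adjusted p = 0.0139), but the RNA sets overlapped and the call was lost with number as a block (adjusted p = 0.0724, with a range of 0.00561 to 0.342 over the alternatives). Stag3, a meiotic cohesin subunit (chr5:138272514-138312397), had footprints of 5.92, 6.61 and 7.36 against 1.0, 2.21 and 4.03, again apart (-1.27, SE 0.23). Numbers 1 and 2 of Stag3 span a narrow range, whereas within the other set number 3 and number 4 differ: the difference was -0.74 without number 3 and -1.79 without number 4. Its RNA fell by 1.04 (SE 0.16, adjusted p = 0.00316). Smc1b, another meiotic cohesin subunit (chr15:85064689-85131957), was close to 0 in footprints of numbers 3 and 4 (0, 0.124 and 0.211 against 0.963, 1.25 and 1.98), and its RNA fell by 1.53 (adjusted p = 0.0031). Its footprint difference of -1.06 was -0.98 without inhibitor 1. The recombinase gene Dmc1 (chr15:79561497-79605159) had a footprint difference of -1.25 (SE 0.19); its RNA fell by 1.30 (adjusted p = 0.0127), a call lost with the block (0.0585, range 0.00335 to 0.23).

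Regulators of germ cell entry into meiosis stood in the same direction. Stra8, the retinoic acid-responsive gatekeeper of meiosis (chr6:34920163-34939344), had footprints of 1.93, 3.42 and 4.69 scaled FPKM in numbers 1 and 2 and of 0, 0.636 and 0.799 in numbers 3 and 4, with no overlap (-1.45, SE 0.18). Its RNA fell by 1.92 (SE 0.26, adjusted p = 0.00115), from 2.35, 4.28 and 7.17 to 0, 0.454 and 1.24. With the block the adjusted p of Stra8 was 0.00839, range 0.00033 to 0.0388. Sohlh2, a transcription factor of early germ cells (chr3:55182044-55209957), had footprints of 3.30, 6.56 and 7.84 against 0.30, 1.49 and 2.12. These sets were apart too (-1.57, SE 0.24), and its RNA fell by 1.51 (SE 0.28, adjusted p = 0.00718). With the block the adjusted p of Sohlh2 was 0.0444, range 0.00326 to 0.294. Dazl, an RNA-binding protein of germ cells (chr17:50279393-50293620), had footprints of 3.48, 5.29 and 6.55 against 1.32, 1.84 and 2.01. Its sets were apart (-1.13, SE 0.15), and its RNA fell by 1.58 (SE 0.22, adjusted p = 0.00167). Taf7l, a germ cell subunit of the general transcription factor TFIID (chrX:134460116-134476505), had footprints of 2.62, 4.90 and 10.9 against 0.575, 0.821 and 1.49, apart (-1.61, SE 0.17). Its RNA fell by 1.29 (SE 0.22, adjusted p = 0.00526, with the block 0.0357, range 0.00173 to 0.27) with overlapping sets. Ctcfl, the testis paralog of CTCF (chr2:173093609-173119525), was under the level needed for comparison in footprints, and its RNA fell by 2.28 (SE 0.27, adjusted p = 0.000524).

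Other germline genes counted lower act outside the chromosome axis. Mael, which acts in the piRNA pathway against transposons (chr1:166201385-166238744), had footprints of 4.59, 6.47 and 8.54 scaled FPKM in numbers 1 and 2 and 1.44, 2.28 and 3.18 in numbers 3 and 4, without overlap (-1.15, SE 0.15), and its RNA fell by 0.96 (SE 0.17, adjusted p = 0.0067). Tuba3a, a testis alpha-tubulin (chr6:125278270-125286081), had the highest footprint values of the 13, at 21.3, 29.9 and 39.7 against 7.28, 9.13 and 10.4. Its sets were apart in both assays (-1.57, SE 0.13, in footprints), and its RNA fell by 1.62 (SE 0.20, adjusted p = 0.000658). Reads of Tuba3a can match its near copy Tuba3b, and how they were divided was not checked. Tex19.1, a gene of germ and pluripotent cells (chr11:121146143-121148314), had a footprint difference of -1.29 with overlapping sets, at 20.5, 39.2 and 64.8 against 10.4, 13.1 and 25.6. Its RNA fell by 0.97 (adjusted p = 0.0149), a call lost with the block (0.0569, range 0.000788 to 0.89). The RNA helicase gene Ddx4 (chr13:112598333-112652633) had footprints apart at -0.86, and its RNA difference of -0.72 did not pass (adjusted p = 0.0683). The 4 compared members above 0 were Mei4, Ddx25, Dnd1 and Nanos3, at 0.09 to 0.38.

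**Figure D3:**
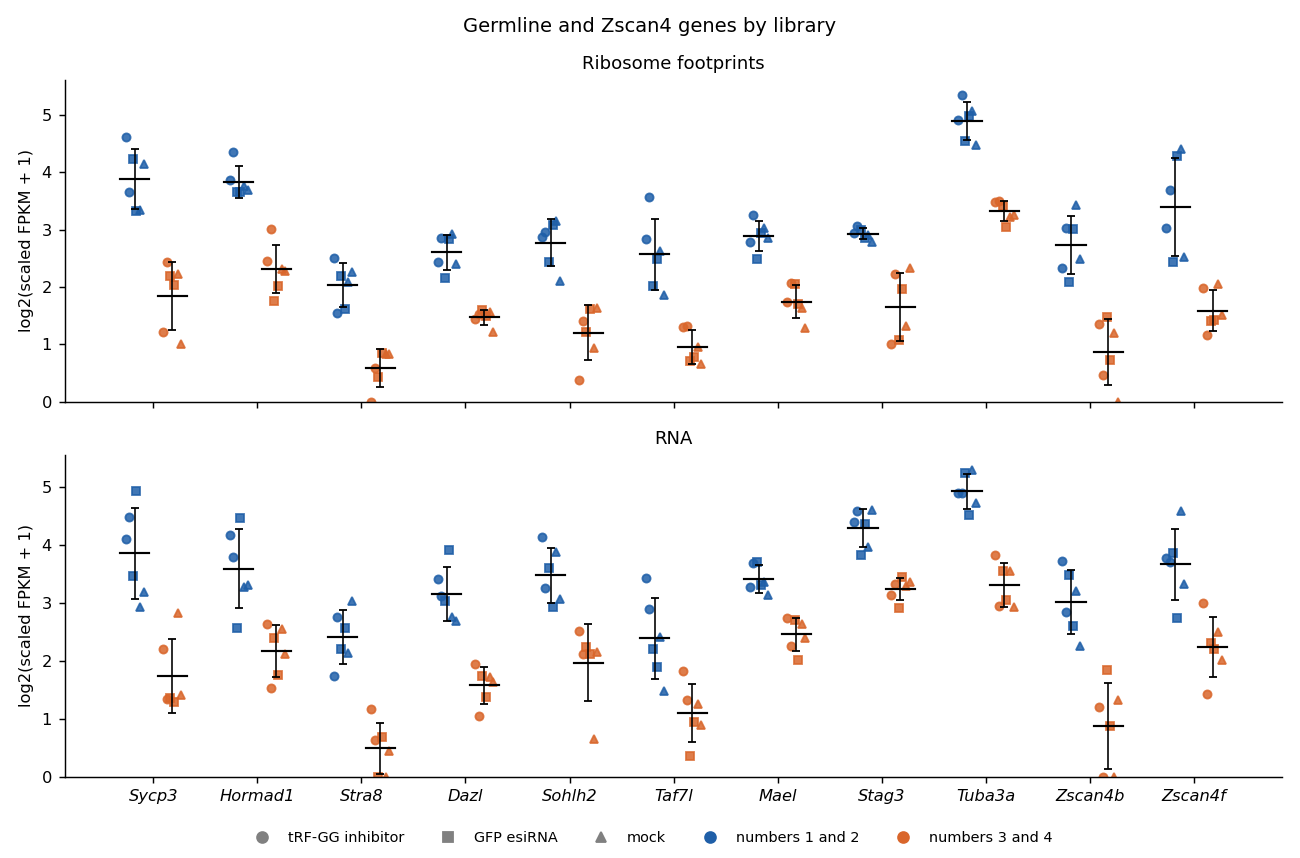
Points are single libraries in log2(scaled FPKM + 1), footprints above and RNA below, with shapes for the treatment and colours for the set; the bar is the mean of 6 libraries and the whisker its SD. In footprints all 11 genes have every library of numbers 3 and 4 below every library of numbers 1 and 2, while in RNA the sets of Hormad1, Taf7l and Zscan4f overlap.

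Genes of the 2-cell embryo state lay lower in numbers 3 and 4 too. A small share of embryonic stem cells passes through a state that resembles the 2-cell embryo, with the transcription factor DUX, the zinc finger proteins of the Zscan4 family and genes driven by the MERVL retroelement. In these bulk libraries, fewer cells in that state and less RNA per cell cannot be told apart, here and for every other gene. All 33 members compared in footprints were below 0, with a median of -0.92, and 3 of them, all Zscan4 genes, were counted lower against 0.797% of all genes. All 38 members tested in RNA were below 0, with a median of -1.07, where all genes had -0.10 in footprints and -0.02 in RNA. Of the 38, 16 fell, against 3.95% of all genes, and 3 fell with number as a block, against 0.685%. A member near 0 in numbers 3 and 4 could enter through numbers 1 and 2 alone. The counts and the shared sign are therefore not independent support for the direction. Reads of the Zscan4, Tcstv and Usp17l families can match several copies, so single members are uncertain.

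Zscan4f (chr7:11397915-11402318) had footprints of 4.42, 9.51 and 20.1 scaled FPKM in numbers 1 and 2 and 1.25, 1.75 and 3.15 in numbers 3 and 4. The sets were apart, and the difference was -1.81 (SE 0.38). In RNA it fell by 1.43 (SE 0.30, adjusted p = 0.0121), with overlap, and lost its call with the block (0.0537, range 0.00256 to 0.352). Zscan4b (chr7:10900740-10905050) had footprints of 3.27, 5.82 and 9.78 against 0, 0.975 and 1.79, also apart (-1.86, SE 0.31). Its RNA fell by 2.15 (SE 0.33, limma adjusted p = 0.00316, with the block 0.0262, range 0.00152 to 0.0635). Zscan4c, at -1.06 in footprints, fell below the size counted without inhibitor 1, GFP 2, GFP 4, mock 1 or mock 3 (-0.97 at its smallest). Its transcript fell by 1.82 (adjusted p = 0.00524, with the block 0.0374, range 0.00277 to 0.0811). Dux itself was low, with footprints of 0.45, 1.01 and 1.68 against 0, 0.19 and 0.352; the sets were apart at -0.80, below the size counted, and the RNA difference of -0.62 did not pass (adjusted p = 0.132). Calcoco2, an autophagy receptor gene (chr11:96098916-96124560), had footprints of 9.01, 11.6 and 14.3 against 3.85, 6.81 and 7.96, apart at -0.76; its RNA fell by 1.32 (adjusted p = 0.0196), a call lost with the block (0.0691, range 0.00194 to 0.513).

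The level of the 2-cell list also followed treatment within each set. Its mean deviation from the average library in footprints was 1.10 and 1.83 in inhibitor libraries 1 and 2, -0.46 and 0.46 in GFP 1 and 2, and 0.61 and -0.34 in mock 1 and 2. In numbers 3 and 4 it was 0.32 and -0.22 in inhibitor, -0.66 and -0.88 in GFP and -0.72 and -1.05 in mock libraries. The inhibitor libraries were highest within each number, and each treatment was lower in its numbers 3 and 4 than in its numbers 1 and 2. The germline list ranged from 0.27 to 0.64 in numbers 1 and 2 and from -0.57 to -0.19 in numbers 3 and 4, so its libraries did not overlap.

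Genes of NRF2, the transcription factor that answers oxidative and electrophilic stress, lay lower in numbers 3 and 4 in part. Of 19 members compared in footprints, 3 were counted lower and none higher, against 0.797% lower among all genes, with a median of -0.38. Of 19 tested in RNA, 5 fell and none rose, against 3.95% of all genes that fell, and 2 fell with the block, against 0.685%. The RNA median was -0.41. With FPKM as deposited the RNA median was 0.39, where that of all genes was 0.60. Numbers 1 and 2 differed in RNA. The list's mean deviation from the average RNA library was 0.22, 0.35 and 0.32 in inhibitor, GFP and mock number 1. It was -0.08, 0.04 and 0.03 in number 2, and -0.22 to -0.09 in numbers 3 and 4. Nqo1, a quinone reductase (chr8:107388225-107403205), had footprints of 29.8, 39.3 and 47.4 scaled FPKM in numbers 1 and 2 and 9.98, 11.7 and 13.4 in numbers 3 and 4. Both sets were tight and far apart (-1.65, SE 0.14). RNA of the gene fell by 1.42 (SE 0.13, adjusted p = 0.000134), from 34.8, 43.3 and 49.3 to 13.4, 15.2 and 16.9. With the block the adjusted p of Nqo1 was 0.001, range 1.6e-05 to 0.459. Ptgr1, a reductase of prostaglandins and reactive aldehydes that is not on the list (chr4:58965590-58987131), had footprints of 16.1, 20.5 and 26.9 against 5.26, 5.78 and 6.83, apart as well (-1.62, SE 0.15), and its RNA fell by 1.52 (SE 0.24, adjusted p = 0.00353). With the block the adjusted p of Ptgr1 was 0.0136, range 0.000111 to 0.34.

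Txnrd1, the cytosolic thioredoxin reductase (chr10:82833951-82897724), had footprints of 23.0, 25.8 and 31.1 against 8.31, 12.4 and 18.2. The sets were apart at -1.01 (SE 0.17), a size that was under 1 without inhibitor 2 or 3, GFP 1, 2 or 3, or mock 1 or 3 (-0.90 at its smallest) and -0.65 without number 3 in all treatments. In RNA it fell by 0.65 (SE 0.12, adjusted p = 0.00706, with the block 0.0431, range 0.00282 to 0.803). Its RNA difference stood at 0.20 with FPKM as deposited. Me1, the cytosolic malic enzyme that makes NADPH (chr9:86581363-86695914), had a footprint difference of -1.14 (SE 0.19), and its RNA fell by 0.82 (adjusted p = 0.0365), a call lost with the block (0.114, range 0.00188 to 0.941) and without any 1 of 9 libraries, which were the 4 GFP libraries, inhibitor 1, 3 and 4, and mock 1 and 4 (adjusted p up to 0.0983). Hmox1, the heme oxygenase gene and another NRF2 target (chr8:75093618-75100593), was at 0.25 in footprints and 0.22 in RNA with overlapping sets (adjusted p = 0.648). It was the 1 list member above 0 in footprints.

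Among genes counted higher, the Nodal antagonists Lefty1 and Lefty2 stood near the top. Nodal is a secreted ligand of the TGF-beta family that signals through activin receptors, SMAD2 and SMAD3 and the transcription factor FOXH1, and the LEFTY proteins are induced by this signal and block it. Lefty2 (chr1:180893108-180899107) had footprints of 1.15, 2.12 and 2.48 scaled FPKM in numbers 1 and 2 and 5.99, 12.9 and 15.5 in numbers 3 and 4. The sets were apart (2.07, SE 0.19). Its RNA rose by 2.60 (SE 0.29, adjusted p = 0.000392), from 1.47, 3.05 and 6.70 to 14.7, 24.7 and 39.8, again without overlap. Lefty1 (chr1:180935022-180938401) had footprints of 1.14, 2.67 and 3.80 against 6.99, 11.3 and 14.2, apart (1.87, SE 0.21), and its RNA rose by 1.95 (SE 0.38, adjusted p = 0.0102). With the block the adjusted p was 0.0414 for Lefty1 (range 5.59e-05 to 0.119) and 0.00212 for Lefty2 (range 6.81e-07 to 0.0189).

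The ligand itself was not counted. Nodal (chr10:61417972-61425338) had footprints of 20.9, 27.4 and 39.7 scaled FPKM in numbers 1 and 2 and 19.08, 31.7 and 38.9 in numbers 3 and 4, so the sets lay on top of each other (0.07, SE 0.17, and -0.16 with FPKM as deposited). Its RNA difference was 0.04 (SE 0.14, adjusted p = 0.883). The co-receptor Tdgf1 (chr9:110939608-110946158), at 210 and 213 scaled FPKM in the set medians of footprints, had a difference of 0.07 there (-0.17 with FPKM as deposited) and 0.37 in RNA (adjusted p = 0.0976). Gdf3, a related ligand (chr6:122605403-122610087), was at 0.13 in footprints and -0.10 there with FPKM as deposited; its RNA rose by 0.64 (adjusted p = 0.0122), a call lost with the block (0.0657, range 0.00383 to 0.18). Foxh1 (chr15:76667829-76671614) was at 0.28 in footprints; its RNA rose by 0.67 (adjusted p = 0.0228), a call lost with the block (0.118, range 0.0115 to 0.246) and without inhibitor 1, inhibitor 3, GFP 3 or GFP 4 (up to 0.0658). Smad7, an inhibitory SMAD, was at -0.13 and -0.15 (adjusted p = 0.678). Over the list, 2 of 19 members were counted higher in footprints and none lower, against 0.272% higher among all genes, with a median of 0.00. In RNA 6 of 20 rose and none fell, against 5.16% of all genes that rose, and 3 rose with the block, against 1.14%. This list too was drawn up after values had been seen.

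Trh, Spp1, Col18a1 and Chga were also among the genes counted higher. Trh, the precursor of thyrotropin-releasing hormone (chr6:92242061-92244650), had footprints of 23.8, 34.6 and 39.4 scaled FPKM in numbers 1 and 2 and 90.6, 152 and 194 in numbers 3 and 4. The sets were far apart (2.12, SE 0.20), and its RNA rose by 2.57 (SE 0.26, adjusted p = 0.00026). Spp1, the matrix protein osteopontin (chr5:104435111-104441053), had footprints of 94.7, 129 and 221 against 226, 359 and 522, just apart (1.33, SE 0.21). Its RNA rose by 1.0 with overlapping sets (SE 0.18, limma adjusted p = 0.0057, with the block 0.0296, range 0.000749 to 0.107). Col18a1, the collagen that gives rise to endostatin (chr10:77052178-77166530), had footprints of 34.2, 37.7 and 52.4 against 63.8, 120 and 210. Its sets were apart (1.60, SE 0.28), but numbers 3 and 4 were unlike each other, with a difference of 1.06 without number 3 and 2.16 without number 4. Its RNA rose by 1.02 (SE 0.18, limma adjusted p = 0.00632, with the block 0.0493, range 0.00154 to 0.127). Chga, the chromogranin of secretory granules (chr12:102554941-102565027), had footprints of 3.61, 4.24 and 5.02 against 9.28, 11.7 and 20.5, apart (1.41, SE 0.16); its RNA rose by 0.95 (adjusted p = 0.00959), a call lost with the block (0.0565, range 0.0047 to 0.163).

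**Figure D4:**
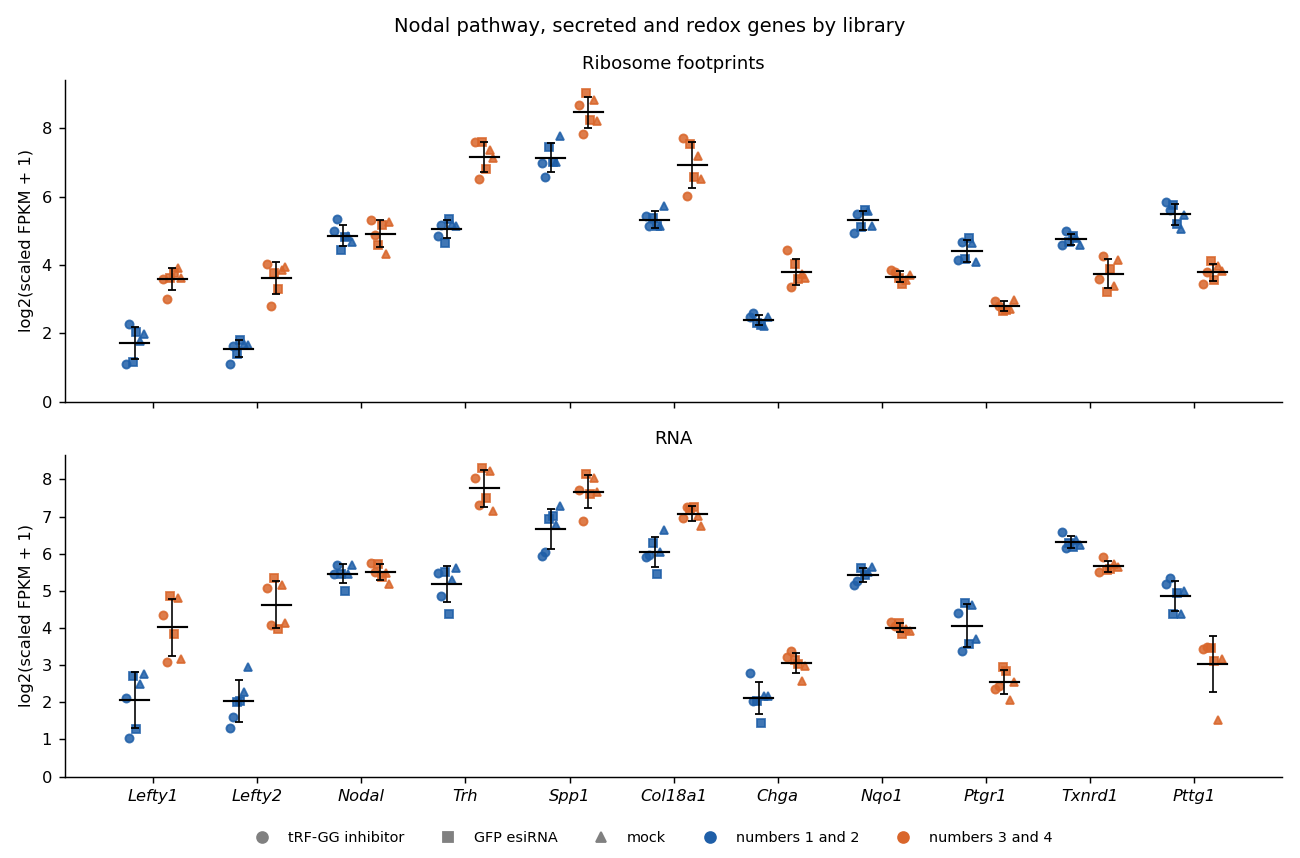
Points are single libraries in log2(scaled FPKM + 1), footprints above and RNA below, with shapes for the treatment and colours for the set; the bar is the mean of 6 libraries and the whisker its SD. Lefty1, Lefty2 and Trh are higher in every library of numbers 3 and 4 in both assays, Nodal overlaps in both, and Nqo1, Ptgr1, Txnrd1 and Pttg1 are lower without overlap in both.

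Genes of the endoplasmic reticulum and of sterol synthesis lay higher by smaller amounts. The first group folds secreted proteins. The second is driven by SREBP2, a transcription factor released from the membrane when sterols are low. No member of either list reached the footprint size counted, but 6 of 23 chaperone genes and 6 of 29 sterol and lipid genes lay wholly above in footprints, against 2.85% of all genes, with medians of 0.28 and 0.20. With FPKM as deposited the footprint medians were 0.07 and -0.00, where that of all genes was -0.27. In RNA 8 of 23 and 11 of 29 rose and none fell, against 5.16% of all genes that rose, and 4 of each rose with the block, against 1.14%. Both RNA medians were 0.40.

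Fdft1, squalene synthase (chr14:63145150-63181687), had footprints of 7.35, 7.99 and 8.95 scaled FPKM in numbers 1 and 2 and 8.98, 11.2 and 13.2 in numbers 3 and 4. The sets were just apart at 0.41 (SE 0.10), and its RNA rose by 0.72 (SE 0.12, adjusted p = 0.00425). Scd2, a fatty acid desaturase (chr19:44293676-44306864), had footprints of 20.3, 25.7 and 38.01 against 39.9, 44.8 and 47.4. These were apart as well (0.71, SE 0.16), and its RNA rose by 1.09 (SE 0.22, adjusted p = 0.0092). Hmgcs1, an early enzyme of the pathway (chr13:119690351-119708260), had overlapping sets at -0.28 in footprints and 0.09 in RNA (adjusted p = 0.72).

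Hyou1, a large chaperone of the reticulum (chr9:44379490-44392369), had footprints of 25.4, 27.4 and 32.1 scaled FPKM in numbers 1 and 2 and 41.6, 48.3 and 52.7 in numbers 3 and 4. The sets were apart (0.73, SE 0.10), and its RNA rose by 0.97 (SE 0.15, adjusted p = 0.00355). For the disulfide isomerase genes the assays differed in size. Pdia4 (chr6:47796141-47813512) was apart at 0.51 in footprints, and its RNA rose by 0.73 (adjusted p = 0.00664). Pdia6 (chr12:17266589-17284785) overlapped at 0.31 in footprints, and its RNA rose by 1.07 (adjusted p = 0.000329). Calr, the calcium-binding chaperone calreticulin (chr8:84842088-84846931), overlapped at 0.25, and its RNA rose by 0.80 (adjusted p = 0.00355). The master chaperone gene Hspa5 (chr2:34772090-34776529) was at 0.20 in footprints, -0.04 there with FPKM as deposited, and 0.34 in RNA, which did not pass (adjusted p = 0.127). The difference between footprints and RNA was not tested for these genes.

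Pluripotency genes as a list were near the median of all genes, at 0.07 in footprints with 1 of 30 members counted each way, against 0.272% higher and 0.797% lower among all genes. Utf1, a chromatin protein of undifferentiated cells (chr7:139943856-139945112), had footprints of 98.0, 110 and 133 scaled FPKM in numbers 1 and 2 and 156, 234 and 272 in numbers 3 and 4. The sets were apart at 1.02 (SE 0.12), and the size fell to 0.97 at its smallest without 1 of 4 libraries (inhibitor 3, GFP 1, GFP 3 or mock 2). Its RNA sets overlapped, at 0.18 (adjusted p = 0.55). Fbxo15, an OCT4 and SOX2 target that is dispensable for stem cells, had footprints of 54.1, 66.7 and 99.7 against 18.6, 23.4 and 34.1, apart (-1.45, SE 0.10). Its transcript fell by 0.75 (adjusted p = 0.0388), but the call was lost with the block (0.147, range 0.0191 to 0.905) and without any 1 of 9 libraries (the 4 inhibitor libraries, GFP 2 to 4, mock 1 and mock 4; up to 0.105), and the value was 0.10 with FPKM as deposited. Nanog (chr6:122707489-122714633) was apart in both assays at -0.45 in footprints and -0.44 in RNA (adjusted p = 0.0628), and its footprint difference was -0.70 without number 3 and -0.19 without number 4. Sox2 (chr3:34649995-34652461) overlapped at 0.25 and 0.14 (adjusted p = 0.627).

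Other protein-coding genes named by the rule of size belong to several pathways. Gm364, an X-linked gene (chrX:57400767-57488773), had footprints of 3.72, 22.5 and 41.1 scaled FPKM in numbers 1 and 2 and 0.318, 0.59 and 1.99 in numbers 3 and 4, apart at -3.10 (SE 0.64). RNA of the gene fell by 2.38 (adjusted p = 0.0337), a call lost with the block (0.0621, range 9.91e-06 to 0.297) and without any 1 of 7 libraries (inhibitor 1 or 4, GFP 1, 3 or 4, mock 1 or 4; up to 0.0888). Pttg1, the securin that holds separase until anaphase (chr11:43420244-43427463), had footprints of 32.4, 45.6 and 56.1 against 9.88, 13.0 and 16.3, apart at -1.71 (SE 0.16). In RNA it fell by 1.84 (SE 0.26, adjusted p = 0.00167, with the block 0.0157, range 0.000541 to 0.243). Of 28 genes of mitosis compared in footprints none was counted in either direction, and their median was -0.28.

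Krt8, a keratin of simple epithelia and trophoblast (chr15:101996711-102004342), had footprints of 4.93, 8.87 and 23.3 against 1.54, 2.25 and 4.28, apart at -1.57 (SE 0.33). Its transcript fell by 1.43 (adjusted p = 0.0455), a call lost with the block (0.101, range 0.000894 to 0.36) and without any 1 of 9 libraries (inhibitor 1, 3 or 4, GFP 1, 3 or 4, mock 1, 3 or 4; up to 0.109). The summed trophoblast markers in footprints were 0.235 to 4.93 scaled FPKM in numbers 1 and 2 and 0.257 to 2.48 in numbers 3 and 4, and their part in this difference was not tested. Akap12, a scaffold for protein kinase A (chr10:4266329-4359471), had footprints of 29.2, 36.4 and 54.8 against 71.7, 104 and 143, apart at 1.40 (SE 0.23). Its RNA rose by 0.46 (adjusted p = 0.0449), a call lost with the block (0.171, range 0.0253 to 0.306) and without any 1 of 9 libraries (the 4 inhibitor libraries, GFP 2 to 4, mock 1 and mock 4; up to 0.121).

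For Car9 and Fam117b a counted footprint difference stood without an RNA call. Car9, a carbonic anhydrase of the hypoxia response (chr4:43507026-43513729), had footprints of 4.53, 6.87 and 10.4 scaled FPKM in numbers 1 and 2 and 18.5, 31.7 and 147 in numbers 3 and 4, apart at 2.27 (SE 0.43). Its RNA was at most 0.677 scaled FPKM in any library and was not tested. Whether the footprint reads of Car9 came from ribosomes on its transcript was not tested. Fam117b (chr1:59913006-59985348) had footprints of 3.72, 4.32 and 6.94 against 8.70, 17.96 and 31.1, apart at 1.74 (SE 0.28), and RNA at -0.42 with overlapping sets (adjusted p = 0.17). Number 4 carried more of its footprint difference than number 3, as the value was 2.31 without number 3 and 1.19 without number 4. Tmem234 (chr4:129600669-129608533) was counted at 1.51 (SE 0.76), but this rests on inhibitor library 3, at 625 scaled FPKM, without which the difference was 0.74. The other 5 libraries of numbers 3 and 4 were at 18.5 to 33.0 and numbers 1 and 2 at 14.05 to 16.4. Its RNA rose by 0.76 with sets apart, at 17.1 to 37.5 against 39.1 to 56.8 (adjusted p = 0.0167), a call lost with the block (0.0911, range 0.0066 to 0.185) and without GFP 3 (0.0528).

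Among imprinted genes, which are expressed from 1 parental copy, 1 of 25 was counted higher in footprints and 2 lower, against 0.272% and 0.797% of all genes, on a list drawn up after values had been seen. Cdkn1c, a growth-restraining inhibitor of cyclin-dependent kinases (chr7:143458339-143461059), had footprints of 1.05, 3.30 and 6.02 scaled FPKM in numbers 1 and 2 and 8.23, 12.2 and 13.9 in numbers 3 and 4, apart at 1.64 (SE 0.29), with RNA at 0.62 (adjusted p = 0.336). Dio3, which inactivates thyroid hormone (chr12:110279230-110281097), had footprints of 0.935, 1.31 and 2.40 against 0, 0.0703 and 0.246, apart at -1.17 (SE 0.14). Its RNA fell by 1.67 (SE 0.24, limma adjusted p = 0.00175, with the block 0.00695, range 4.84e-05 to 0.0849). Meg3, a noncoding RNA of the same cluster (chr12:109540996-109571729), was at 0.26 in footprints; its RNA rose by 1.12 (SE 0.25, adjusted p = 0.0154), a call lost with the block (0.0657, range 0.00381 to 0.231). Copg2, a coat protein gene (chr6:30747554-30896815), was apart at -1.08 in footprints. RNA of the gene fell by 0.56 (adjusted p = 0.0471), a call lost with the block (0.149, range 0.0133 to 0.826) and without any 1 of 10 libraries (all but inhibitor 1 and GFP 1; up to 0.114), and it stood at 0.17 with FPKM as deposited.

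Some noncoding RNAs had large differences, in part with opposite signs in the 2 assays. Whether their footprint reads came from ribosomes was not tested. D030040B21Rik, a long noncoding RNA (chr1:16657552-16662278), was listed at 0 in all 6 footprint libraries numbered 1 and 2 and at 1.60, 7.82 and 167 scaled FPKM in numbers 3 and 4. Its RNA rose by 6.05 (SE 0.46, adjusted p = 0.000168), from 0.228, 0.426 and 1.77 to 38.3, 102 and 344, and no RNA library of 1 set came near the other. 2310002D06Rik, another one (chr12:80507206-80517954), went the other way in footprints, from 14.9, 31.0 and 72.0 to 0.471, 4.47 and 7.40 (-3.01, SE 0.44). In RNA it was listed at 0 in all 6 libraries numbered 1 and 2 and at 4.88, 76.2 and 181 in numbers 3 and 4 (5.62, SE 0.77, adjusted p = 0.00497). 4930528D03Rik (chr13:59733650-59737470) had footprints of 14.8, 20.2 and 28.9 against 0, 2.48 and 9.93 (-2.58, SE 0.54). In contrast, its RNA rose by 1.09 (SE 0.18, limma adjusted p = 0.00355, with the block 0.022, range 0.000876 to 0.0972). These are the 2 genes counted lower in footprints that rose in RNA.

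Tbrg3 (chr15:82890483-82898461) had footprints of 8.99, 10.6 and 14.8 against 1.05, 1.25 and 1.81, with tight and distant sets (-2.41, SE 0.12), and RNA at 0.40 (adjusted p = 0.261). The transcribed pseudogene Gm5424 (chr10:62071022-62072571) had footprints of 137, 149 and 160 against 21.8, 66.1 and 107, apart at -1.33 (SE 0.27), with RNA at 0.09 (adjusted p = 0.845); whether it shares reads with its parent gene was not checked. Of 100 small nucleolar and nuclear RNAs compared in footprints, 1 was counted each way (0.272% higher and 0.797% lower among all genes). Snora31 (chr14:75847923-75848034) was lower, at 47.9, 70.0 and 110 against 5.96, 12.3 and 21.4 (-2.53, SE 0.34), with RNA at -0.74 (adjusted p = 0.568). Snora78 (chr17:24719676-24719832) was higher by 1.34 (SE 0.37) in footprints, 0.98 without mock 4, and at -0.06 in RNA (adjusted p = 0.968).

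A large RNA difference was also seen for the protein-coding gene Tmem170 (chr8:111863038-111876746), which rose by 5.71 (SE 0.61, adjusted p = 0.00149), from 4.20, 6.04 and 10.3 to 164, 326 and 2323 scaled FPKM. For Tmem170 the limma adjusted p with the block was 0.00546, range 2.5e-25 to 0.06. Its footprints were low and overlapped, at 0.689, 1.23 and 2.15 against 1.78, 3.01 and 5.82. The largest RNA falls were of small nucleolar RNAs: Snora23 by 4.68 (adjusted p = 0.0323), Snora81 by 4.16 (0.023) and Snord17 by 3.63 (0.0224), all by limma. None of the 3 kept its call with the block, at 0.117 (range 0.012 to 0.286), 0.0572 (range 4.29e-06 to 0.25) and 0.118 (range 0.000128 to 0.163). Snora23 lost it without any 1 of 9 libraries (inhibitor 1, 2 or 4, GFP 2, 3 or 4, mock 1, 3 or 4; up to 0.0853), Snora81 without inhibitor 2 or 4 or GFP 3 or 4 (up to 0.0668), and Snord17 without inhibitor 4, GFP 2 or GFP 4 (up to 0.0636).

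**Figure D5:**
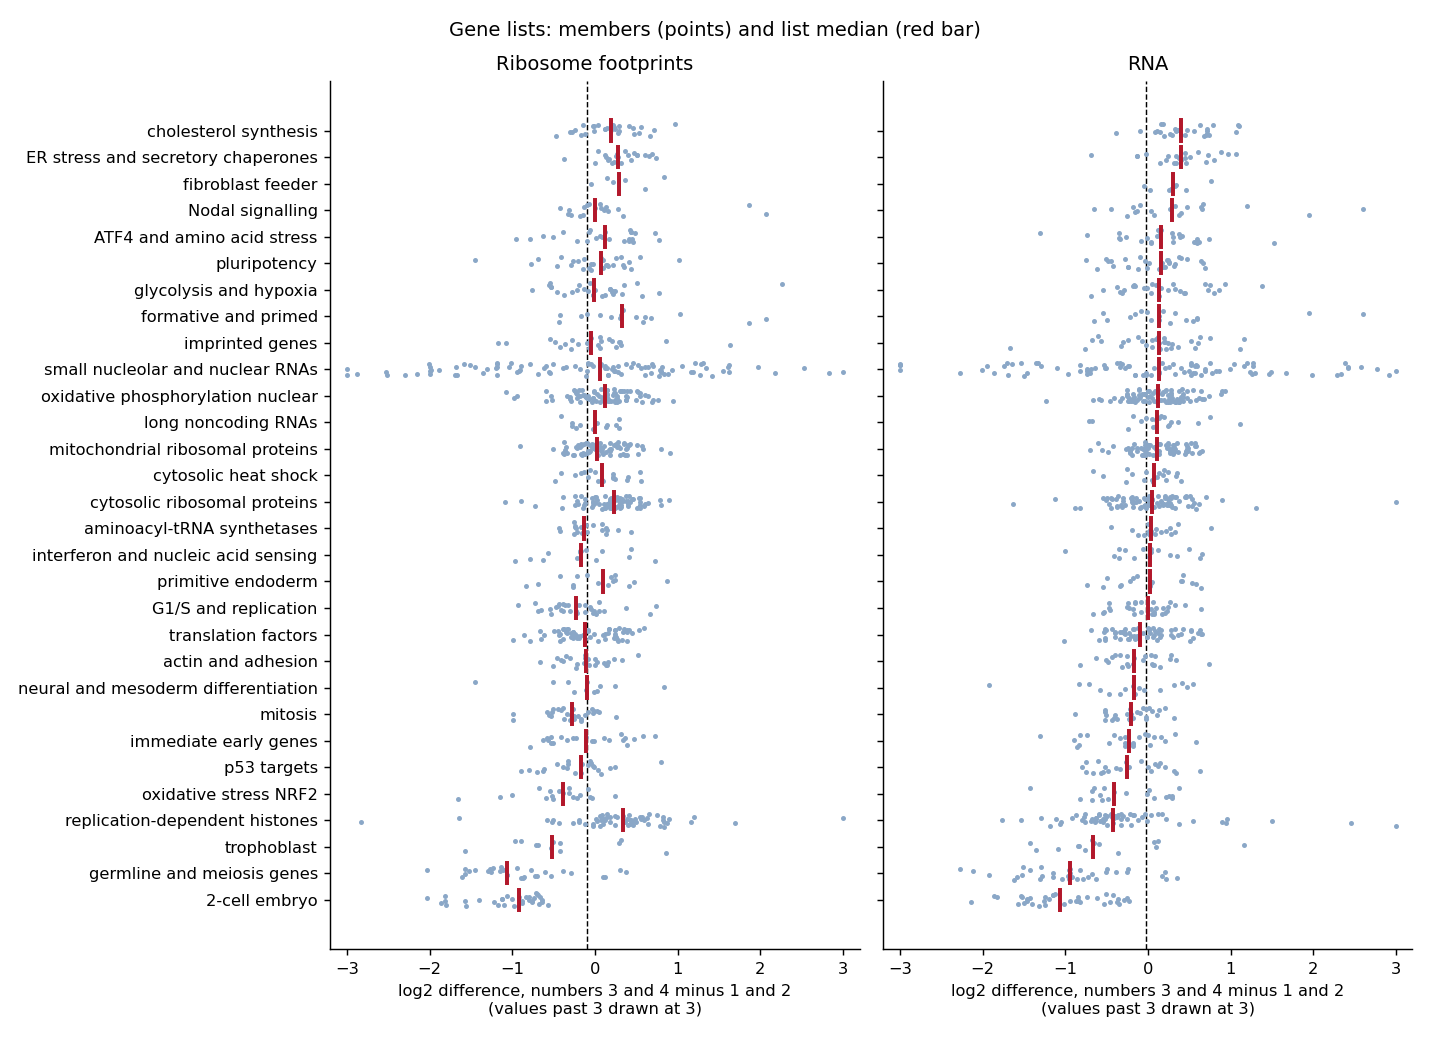
Each point is a gene of a list, each red bar the median of the list, and the dashed line the median of all genes, with footprints on the left and RNA on the right in log2 as numbers 3 and 4 minus 1 and 2. The germline and 2-cell lists lie lowest in both assays, with medians of -1.06 and -0.92 in footprints; replication-dependent histones lie above the dashed line in footprints (0.34, but 0.02 without number 3) and below it in RNA (-0.42).

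Whether the effect of the inhibitor depended on the set was tested in footprints, as this contrast was not used to pick the split. By limma's interaction term over 10661 genes, 0 genes passed for inhibitor minus GFP (0.0%) and 0 for inhibitor minus mock (0.0%), with 163 and 202 genes at an unadjusted p under 0.05. With number as a block 0 genes passed as well, with 242 and 299 at an unadjusted p under 0.05, although mock libraries 1 and 2 follow the other number in footprints. Over the inhibitor and GFP libraries alone, which pair by number, 0 genes passed with the block for inhibitor minus GFP. There 500 genes were at an unadjusted p under 0.05. Each of these unadjusted counts is under the share of 0.05 of genes that would arise with no difference, so none is a sign of one. The smallest p-values for inhibitor minus GFP belonged to low genes: Defb25, a defensin gene, at -2.27 (SE 0.40, adjusted p = 0.909), Mir496a, a microRNA gene of the Dlk1 cluster, at 1.60 (SE 0.29, adjusted p = 0.909), and Usp17ld of the 2-cell list at -2.19 (SE 0.41, adjusted p = 0.909). Sycp3 was at -0.65 (SE 0.80) for inhibitor minus GFP and -0.18 (SE 0.80) for inhibitor minus mock. Lefty2 was at 0.13 (SE 0.51) and -0.15 (SE 0.51). With 2 libraries per treatment in each set these errors are wide, and the values do not show that the treatments act alike in both sets.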

How the data were processed

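Ribosome footprints and RNA were each measured in 12 libraries. The authors deposited FPKM per gene (fragments scaled to transcript length and library size), 1 table per assay, which are RSEM estimates listed with RefSeq transcripts per the file headers. The tools named in the submitters' processing notes are TopHat, Bowtie2, RSEM and CASAVA 1.8.2, with the genome mm10; for the first 3 no version is given in the sources used here. RSEM divides reads that match several transcripts by an estimate. Read counts were not used here, so absolute depth is unknown and no counting intervals are given. Relative depth was estimated from the steps between low FPKM values, and the fit met the direct estimate to within 0.1 (log2) for 57 of 66 pairs of footprint libraries and 53 of 64 of RNA libraries. No 2 libraries held identical values.

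Libraries were scaled by a median of ratios over genes that reach 5 FPKM in all libraries of a table (2960 in footprints, 1717 in RNA), and genes were kept where the mean reached 0.5 scaled FPKM. Differences of log2(scaled FPKM + 1) between numbers 3 and 4 and numbers 1 and 2, with treatment as a covariate, came from limma 3.58.1 in R 4.3.3 (trended, robust, two-sided), adjusted by Benjamini-Hochberg over all genes tested at 0.05. The footprint contrast gives differences and SE without a test. The scripts were tested on simulated data. RNA libraries of 1 number pair, since their deviations from the treatment mean correlated above 0.1 in every pair (0.32 to 0.78); the fit with number as a random block used a consensus correlation of 0.23. Python 3.11.15 made tables, motif searches and plots. Coordinates are those of RefSeq on GRCm38.p6 (mm10).

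Genes were named by a rule: the 10 largest footprint differences each way among counted genes whose mean reached 5 FPKM, the 5 largest each way at a mean of at least 50, up to 3 counted members of each list, the 3 largest RNA changes each way, and the 3 smallest interaction p each way. The split, the members and the gene lists were chosen with earlier results of these data known, and the germline, Nodal and imprinted lists were added after values were seen. The mitochondrial genome genes were not analysed here, and some single genes are not reported here. Alternatives were FPKM as deposited, quantile normalization, pseudocounts of 0.1 and 5, no filter or a mean of at least 5 FPKM, the control treatments alone, no treatment covariate, number as a block, and leaving out each library or each number.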

Additional observations from a re-analysis of the deposited data

Results flagged for a closer look

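Among 158 sets of 6 libraries, for the genes named in both assays, 8 had a highest or lowest library that stood apart from its 5 neighbours by more than the 95% limit of Dixon's gap test, and chance alone flags about that share of sets.

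In footprints numbered 3 and 4, Lefty1 was at 6.99 scaled FPKM in inhibitor library 4 against 10.99 to 14.2 in the others, and Utf1 was at 156 in the same library against 230 to 272. Tmem234 was at 625 in inhibitor footprint library 3 against 18.5 to 33.0.

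In RNA numbered 1 and 2, D030040B21Rik was at 1.77 in inhibitor library 1 against 0.228 to 0.579, Fam117b was at 12.2 in GFP library 2 against 6.24 to 7.66, and Snora78 was at 132 in GFP library 1 against 18.5 to 37.2. In RNA numbered 3 and 4, Pttg1 was at 1.86 in mock library 3 against 7.59 to 10.2, and Sohlh2 was at 0.568 in the same library against 3.36 to 4.75. Mock RNA library 3 was the shallowest RNA library, at 7.18% of the deepest, and the part of its depth in these values was not tested.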

How the results depend on the processing

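Counts of footprint genes higher and lower, 29 and 85 as reported, were 13 higher with FPKM as deposited, 45 and 54 with quantile normalization, 57 and 231 with a pseudocount of 0.1, 13 and 18 with a pseudocount of 5, 38 lower at a mean of at least 5 FPKM, and 47 and 167 in the control treatments alone. Counts of RNA genes, 648 and 496 as reported, were 254 and 16 with FPKM as deposited and 50 and 27 in the controls alone. They were 143 and 86 with the replicate block (number as a random block). With number as a fixed block, chosen after seeing the data, they were 1045 and 970. The fixed block leaves the spread between numbers within a set out of the error, so its counts are not like for like with the others. Ranges of adjusted p given for single RNA genes include the fixed block and leave out the random block. With FPKM as deposited the median of all genes was 0.60 in RNA and -0.27 in footprints, and the RNA differences of Fbxo15 (0.10), Txnrd1 (0.20), Copg2 (0.17), Gclc (0.17) and Srxn1 (0.14) changed sign; they are below that median. The rule for counting footprint genes is easier to meet with fewer libraries. Footprint counts from the controls alone or with libraries left out are therefore not like for like with 29 and 85. The cause of the other changes was not tested.

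Leaving out 1 library, or 1 number in all treatments (chosen after seeing the data), gave 23 to 124 footprint genes higher and 84 to 310 lower, and 57 to 844 RNA genes higher and 32 to 775 lower. Without inhibitor 4 the footprint counts were 48 and 139 and without number 2 the lower one was 128. Single libraries left out gave 310 to 787 RNA genes higher and 203 to 643 lower. The extremes were 124 and 310 in footprints and 57 and 32 in RNA without number 4; without number 3 they were 53 footprint genes higher, and 111 and 64 in RNA. For the inhibitor by set tests the counts were 0 to 5 higher and 0 to 4 lower for both controls, and 2 higher for inhibitor minus mock with no filter. The replicate block changed no count of these tests; footprint libraries pair by number between inhibitor and GFP (0.45 to 0.81) and, for numbers 3 and 4, with mock (0.39 to 0.84), but mock numbers 1 and 2 do not (-0.18 to 0.14).

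Of 2136 footprint values of single genes under the alternatives, 2037 moved by less than the spread between libraries and 99 by more. Their sign changed in 24, all of genes not counted and at most 0.28 in size as reported, and in 0 of counted genes. Of 2136 RNA values, 45 changed sign, 5 of them of genes that had passed, 316 lost a call and 23 gained one. Absolute depth is unknown, so low genes carry an unmeasured counting error.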

Other observations

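Replication-dependent histone genes, whose mRNAs lack a poly(A) tail and are made in S phase, had medians of opposite sign in the 2 assays. In footprints 49 of 61 lay above 0, with a median of 0.34, and none was counted. The footprint value rests on number 3: the list's mean deviation from the average library was 0.49, 0.53 and 0.34 in inhibitor, GFP and mock number 3 but -0.29, -0.04 and -0.13 in number 4, beside -0.47 to 0.11 in numbers 1 and 2. Without number 3 the footprint median was 0.02. In RNA 49 of 61 lay below 0, with a median of -0.42, and 12 fell and 1 rose, against 3.95% and 5.16% of all genes, and 3 fell with number as a block, against 0.685%. With FPKM as deposited the RNA median was 0.43, below the all-gene median of 0.60, and the footprint median 0.10, above the all-gene median of -0.27. These genes are near copies of one another, and how reads were shared out between them was not checked.

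Genes of cytosolic ribosomal proteins had a median of 0.23 in footprints, with 62 of 82 above 0 and none counted, and of 0.04 in RNA, with 6 of 83 rising and 5 falling, shares near the 5.16% and 3.95% of all genes. With quantile normalization the footprint median was 0.02, and with FPKM as deposited -0.01. Trophoblast genes had medians of -0.52 in footprints and -0.67 in RNA, where 2 of 14 fell and 1 rose, against 3.95% and 5.16% of all genes; with FPKM as deposited the RNA median was 0.07.

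Other results of the inhibitor by set tests were low genes. For inhibitor minus mock, Mir3074-2 was at 2.29 (SE 0.37), Qpct at 1.54 (SE 0.30), Ly6g6d at -2.10 (SE 0.49) and Dkkl1 at -1.19 (SE 0.29), with limma adjusted p-values of 0.419, 0.898, 1.0 and 1.0. For inhibitor minus GFP, Plac9b was at 1.45 (SE 0.34), Mir495 at 3.12 (SE 0.84) and Mir18b at -2.82 (SE 0.59), each with an adjusted p of 1.0.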
